A study of Homo sapiens with 24 samples.

Results

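The collagen genes other than type VI were examined in sensory neuron cultures exposed to cytokines. Members were chosen by symbol: every row named COL, a number, A and a number, without the COL6A genes, taking the first row of a symbol and a total count of at least 10 over 24 libraries. This gave 39 members of the 36468 rows in the table: 11 fibrillar collagens, 9 network collagens, 10 FACIT collagens, 4 transmembrane collagens and 5 others. The study had singled out COL10A1, COL14A1, the integrin gene ITGA11, ADAMTS14 and LOX on these same libraries. The changes of these genes here are therefore not independent evidence.

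Cultures were differentiated from H9WAO9, a wild-type human pluripotent stem cell line, through vagal neural crest spheroids. Each of 6 differentiation batches was split over 4 treatments: vehicle (PBS with 0.1% BSA), TGF-β at 2 ng/ml, IL-4 at 10 ng/ml with IL-13 at 3 ng/ml, and IL-6, for which the labels give no dose, with cytokine exposure lasting 5 days. Poly(A) RNA of whole cultures was sequenced, with 1 library per batch and treatment, and all libraries come from a single cell line. The libraries held between 33342682 and 39817784 counts.

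Collagens are built from 3 polypeptide chains wound into a triple helix. Fibrillar collagens (types I, II, III, V, XI, XXIV and XXVII) assemble into banded fibrils, network collagens (IV, VIII and X) into sheets such as the basement membrane, and FACIT collagens sit on the surface of fibrils and link them to their surroundings. Transmembrane collagens are anchored in the cell membrane and can be shed. In the peripheral nervous system collagens form the endoneurial matrix and the basal lamina around axons and Schwann cells, and TGF-β is a classical inducer of fibrillar collagen in mesenchymal cells.

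All marker genes of the listed cell types had counts. None of the 10 neuron, 10 fibroblast or mesenchyme and 10 Schwann cell or glia markers was at 0 in every library. Nor was any of the 8 smooth muscle or pericyte, 10 chondrocyte, 6 epithelium or 6 endothelium markers. Any count in any library was enough for this, so the presence of each cell type was not tested. The vehicle library of batch 2 stood apart from its batch. Its gene-wise deviations from the group mean correlated with those of its own batch at a median r of 0.0043 over 20962 genes, against 0.56 over the 36 pairs of libraries of a batch, and whether it carries the right label cannot be told from the files. Values without batch 2 are given where leaving it out turned a direction, changed a call or moved a fold by over 1.5 times. Batch 1 also differed, with a summed neuron marker level on the log2 scale of 15.5 to 16.3 against 16.5 to 17.7 in the other batches.

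In vehicle cultures, type I collagen led the family. Compared per kilobase of merged exons, COL1A1, the α1 chain of type I collagen (chromosome 17 of GRCh38.p14, 50184101 to 50201631), had 4491 to 25015 normalized counts per kb over the 6 libraries, with a median of 10838. COL1A2, its α2 chain (chromosome 7, 94394895 to 94431227), had 5700 to 13335 per kb, with a median of 9377. The ranges of both chains overlapped. COL11A1, the α1 chain of the minor fibrillar type XI (chromosome 1, 102876473 to 103108522), followed at 1731 to 6367 per kb, and COL9A2, a chain of the cartilage FACIT type IX, at 1664 to 3555 per kb. These ranks use the first row of a symbol: COL3A1, the chain of type III, is listed in 2 rows and had 299 to 6468 per kb from the first (median 1667) and 2811 to 18867 from both (median 6921), which would place it above COL11A1. COL18A1 is also listed in 2 rows. Its first row, with a median of 1892 per kb, held 60.2% to 76.1% of the counts of both in a library. Its rank with both rows was not computed, so the place of COL9A2 is uncertain. At the bottom stood COL10A1, the chain of the network-forming type X of hypertrophic cartilage, with 0 to 2.42 per kb, and COL11A2 with 0 to 0.37 per kb and 14 counts over all libraries. COL1A1 and COL1A2 kept ranks 1 and 2 when the coding length of the longest protein was used instead of the exon length.

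**Figure D1:**
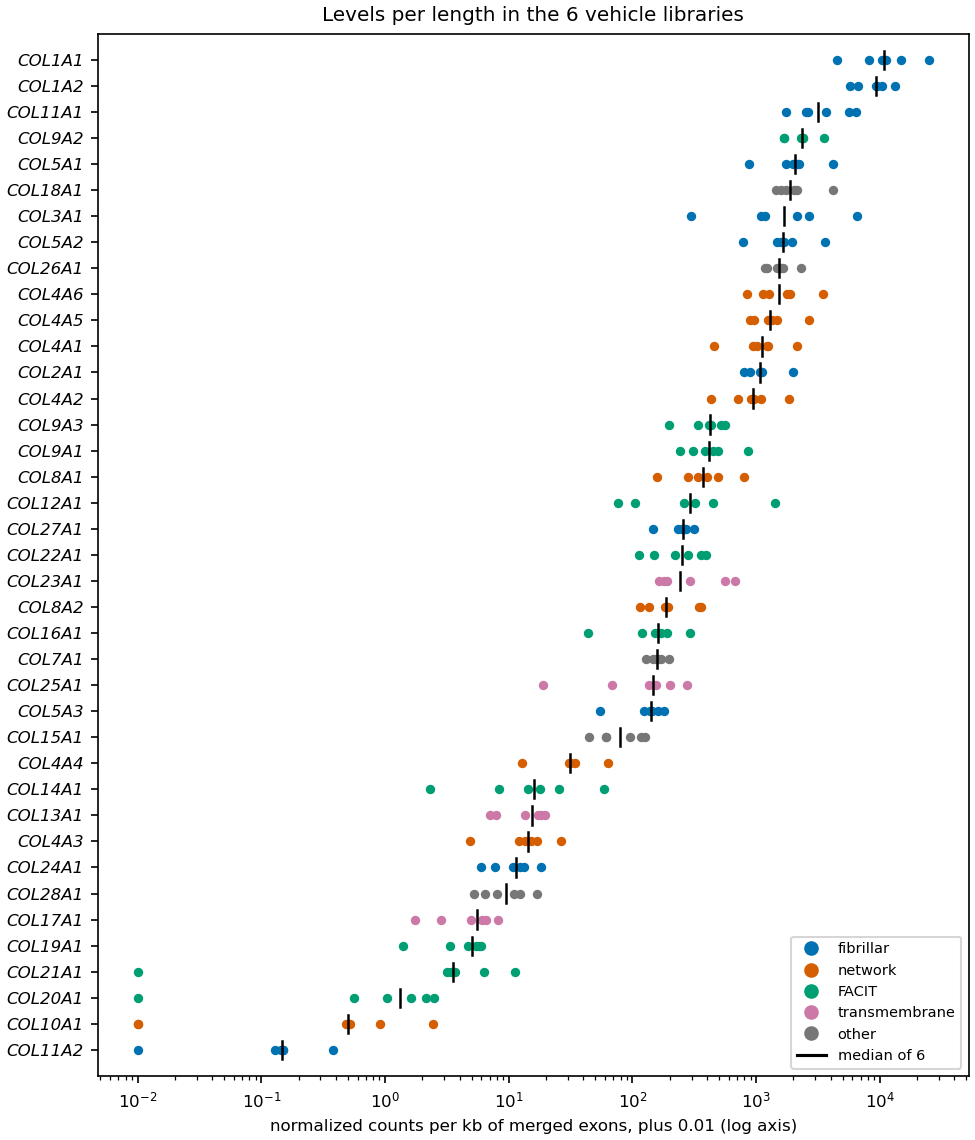
Levels of the 39 collagens per length in vehicle cultures. Each point is 1 of the 6 vehicle libraries, in normalized counts per kb of merged exons plus 0.01 on a log axis, and black lines are medians. COL1A1 has the highest median, 10838 per kb, and the ranges of neighbouring genes overlap.

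The 39 genes together took 0.72% to 1.83% of all counts in vehicle libraries, 0.85% to 2.22% with TGF-β, 0.66% to 1.19% with IL-4+IL-13 and 0.73% to 1.65% with IL-6. Of these collagen counts, COL1A1 and COL1A2 made up 41.4% to 51.9% in vehicle libraries. The share was 44.7% to 54.8% with TGF-β and 37.6% to 46.4% with IL-4+IL-13. The ranges overlapped between all 4 groups, while within batches the type I share under TGF-β exceeded that under IL-4+IL-13 in 6 of 6, by 0.48 to 13.6 percentage points, and the collagen share of all counts in 6 of 6, by 0.18 to 1.14 points. These differences were not tested. All these shares use the first row of a symbol. The other rows of COL3A1 and COL18A1, with 825122 and 206273 counts over the 24 libraries, were left out. Including them would raise the collagen share of all counts and lower the type I share of collagen counts.

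Differences between batches were larger than those between treatments for most members. The share of the variance of the log2 level that lay between batches was 96.4% for COL25A1, a transmembrane collagen found in amyloid plaques, and 93.1% for COL13A1, a transmembrane collagen of the neuromuscular junction. For COL1A2 it was 88.7%, with 2.07% between treatments. COL10A1 and COL14A1 had the opposite balance: 64.5% and 61.1% of their variance lay between treatments, and 12.9% and 28.9% between batches. Next came COL1A1 and COL11A1, with 31.6% and 31.4% between treatments.

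**Figure D2:**
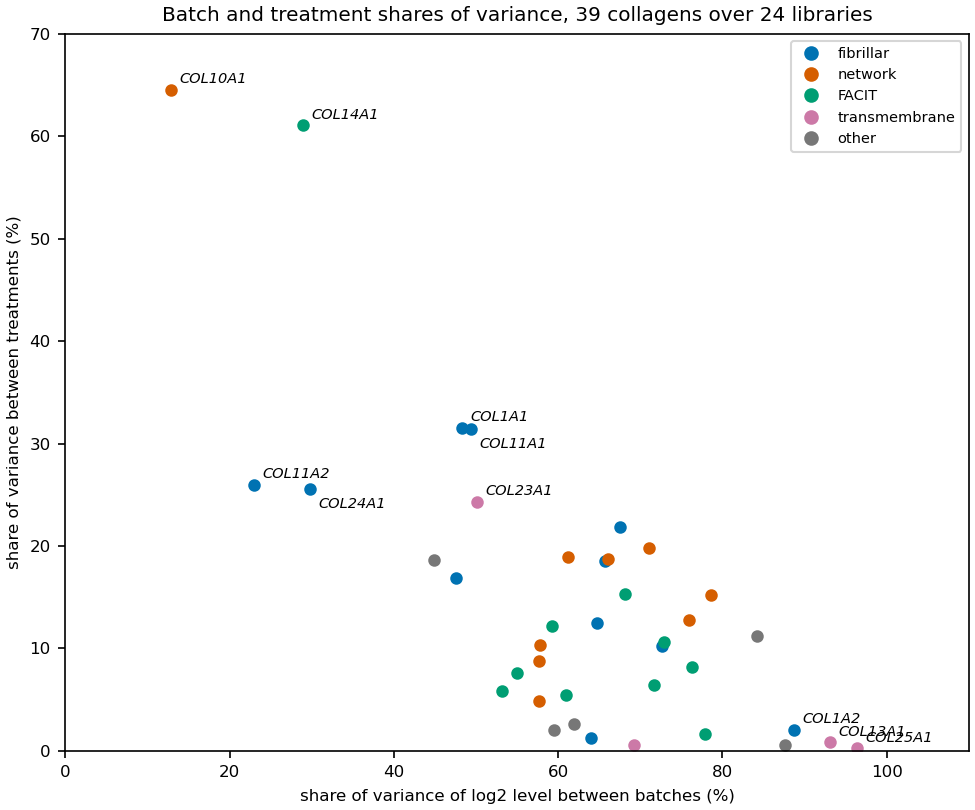
Share of the variance of the log2 level between batches (x axis, %) and between treatments (y axis, %) for each of the 39 collagens over 24 libraries. COL10A1 and COL14A1 stand alone with over 60% between treatments, while COL25A1 and COL13A1 lie at the right with over 90% between batches.

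TGF-β against vehicle addressed how a growth factor of tissue remodeling acts on the cultures. TGF-β raised a single collagen, COL10A1, and no collagen fell by edgeR's quasi-likelihood test, with batch in the model and p-values adjusted over 29377 rows. The type I, III and V genes shifted by less than the test could separate from the variation left once batch was fitted. In bulk samples such as these, a change in the number of cells of a type and a change in RNA per cell cannot be told apart.

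COL10A1 (chromosome 6, 116118909 to 116217144) had 0 to 9.27 normalized counts in vehicle libraries, with a median of 1.88. With TGF-β it had 4.46 to 188 normalized counts, with a median of 67.7. The vehicle libraries of batches 1 and 5 had 0 raw counts, and no vehicle library had more than 9. TGF-β was higher within each of the 6 batches, but the groups overlapped, since batch 1 with TGF-β (4 raw counts) lay below the vehicle library of batch 3 (9 raw counts). The fitted log2 fold change was 4.51 (SE 0.72, edgeR adjusted p = 0.0124). The call was lost without batch 3 (adjusted p = 0.0978) and without batch 5 (adjusted p = 0.121), with log2 folds of 4.73 and 4.18. In a fit of the compared groups alone the log2 fold was 4.64 and the call was also lost (edgeR adjusted p = 0.103). COL10A1 lies over NT5DC1, and with the strandedness of the counting unknown, reads of the overlap cannot be assigned to either gene.

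RefSeq lists 3 starts for COL10A1, and the counts do not show which was used. The 250 bases before the most downstream of them (chr6:116126133-116126382 of GRCh38.p14, minus strand) are shown because COL10A1 was the collagen that TGF-β raised. Capitals mark matches on either strand to the searched motifs, which were the TATA box (TATAAA), the GC box (GGGCGG), the CCAAT box (CCAAT), the SMAD element (CAGACA) and the palindromic STAT element.
COL10A1: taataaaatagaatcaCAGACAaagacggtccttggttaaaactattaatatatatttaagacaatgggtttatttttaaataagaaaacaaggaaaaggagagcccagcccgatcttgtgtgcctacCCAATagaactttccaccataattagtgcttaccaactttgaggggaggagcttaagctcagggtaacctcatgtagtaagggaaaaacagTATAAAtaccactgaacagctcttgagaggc
This stretch held TATAAA at bases 220 to 225, CCAAT at bases 129 to 133 and CAGACA at bases 17 to 22, counted from the 5′ end. Among the 35116 promoters of the RefSeq table, 10.7% held TATAAA on either strand in the same window, 32.01% CCAAT and 13.6% CAGACA. The table held 41 promoters of 29 members, of which 14.6% held TATAAA, those of COL10A1, COL13A1, COL17A1, COL18A1 and COL7A1. A match of letters is a description and not a binding site.

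Among all 39 members, 1 was called higher by TGF-β (background 0.0817% of all rows) and 0 lower (background 0.266%). Backgrounds here and below are shares of all rows tested. They were not matched to the members in expression level, so an excess over them is not a like-for-like comparison. With a log2 fold limit of 1 as well, 1 was called (background 0.143%). At an unadjusted p under 0.05 there were 3 members higher and 4 lower (background 7.29% in either direction). DESeq2 called 2 (background 1.72%), adding COL23A1, a transmembrane collagen. COL10A1 was the 1 member higher in 6 of 6 batches (background 1.66%), and COL4A3 and COL23A1 were the 2 lower in 6 of 6 (background 2.51%). The median log2 fold over the members was 0.06, beside -0.01 over all rows tested.

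Fibrillar collagens were not called with TGF-β. COL1A1 had 40454 to 225309 normalized counts in vehicle, with a median of 97617, and 71705 to 303343 with TGF-β, with a median of 136880. The groups overlapped broadly, and the log2 fold change was 0.38 (SE 0.26, adjusted p = 0.858), higher in 5 of 6 batches. The exception was batch 2, the batch whose vehicle library stood apart, and without it the log2 fold was 0.67 (adjusted p = 0.251). Leaving out batches 1 and 2, a choice made after seeing the data, COL1A1 was called at a log2 fold of 0.77 (adjusted p = 0.0493), as was COL5A1, the α1 chain of the fibril-regulating type V, at 0.66 (adjusted p = 0.0274). With all batches COL5A1 had a log2 fold of 0.47 (SE 0.15, adjusted p = 0.289). COL3A1, found with type I in distensible tissues, ran from 2019 to 43711 normalized counts in vehicle, with a median of 11264, and from 3053 to 27205 with TGF-β, with a median of 7892. Its highest vehicle value was the batch 2 library, and the log2 fold of -0.60 (SE 0.50, adjusted p = 0.908) was 0.12 without that batch.

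COL3A1 is listed in 2 rows, and the row used held between 10.6% and 34.3% of the counts of both rows in a library. The other row gave a log2 fold of -0.39 with TGF-β (adjusted p = 0.915), so its level is uncertain while neither row was called. COL18A1, the collagen that carries endostatin, is listed in 2 rows as well, with log2 folds of -0.01 and 0.04, and COL11A2 in 7.

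In the network group, COL4A6, the α6 chain of basement membrane type IV (chromosome X, 108155614 to 108439458), had 7785 to 32301 normalized counts in vehicle, with a median of 14119, and 3623 to 29519 with TGF-β, with a median of 9617. It was lower in 5 of 6 batches, and the groups overlapped. The log2 fold was -0.61 (SE 0.21, adjusted p = 0.390). Its partner chain COL4A5 was called only without batches 1 and 2, at -0.67 (adjusted p = 0.0279).

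COL23A1 (chromosome 5, 178237618 to 178590393) had 711 to 2924 normalized counts in vehicle, with a median of 1050. With TGF-β it had 456 to 1453, with a median of 499. It was lower within each of the 6 batches, with log2 ratios from -2.53 in batch 4 to -0.17 in batch 6, though the groups overlapped. The log2 fold was -1.09 (SE 0.29), past the threshold with DESeq2 (adjusted p = 0.00957) and not with edgeR (adjusted p = 0.166). COL26A1, a small collagen of the extracellular matrix first found in testis and ovary, had a log2 fold of 0.19 (SE 0.06, adjusted p = 0.282), and the FACIT gene COL14A1 one of -0.57 (SE 0.34, adjusted p = 0.804), which was -0.18 without batch 2.

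**Figure D3:**
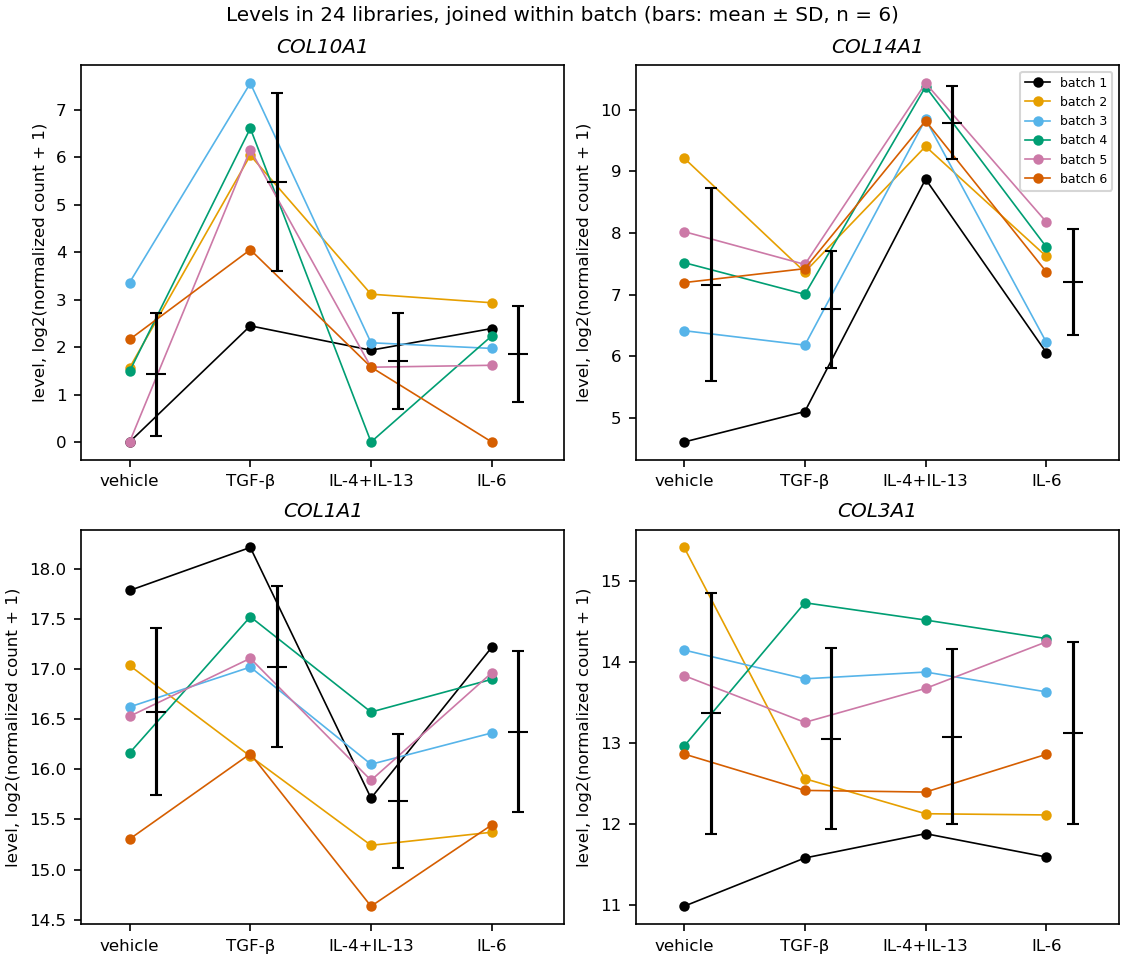
Levels of COL10A1, COL14A1, COL1A1 and COL3A1 as log2(normalized count + 1) by treatment, with 1 point per library, lines joining the libraries of a batch and black bars for the mean ± SD of 6 libraries. COL10A1 peaks with TGF-β at 5.48 ± 1.88, COL14A1 peaks with IL-4+IL-13 at 9.79 ± 0.59, and the batch 2 vehicle library is the highest of the COL3A1 panel.

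IL-4+IL-13 against vehicle asked how type 2 cytokines act on the same cultures. COL14A1, a FACIT collagen that binds fibrils and limits their lateral growth, rose 5.87-fold, and COL11A1, the fibril-nucleating chain, fell 1.87-fold. The remaining members were not called by edgeR, although more of them were below vehicle than above it in the fit. The comparisons against vehicle share the 6 vehicle libraries.

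COL14A1 (chromosome 8) had 23.4 to 594 normalized counts in vehicle, with a median of 164. With IL-4+IL-13 it had 469 to 1381, with a median of 912. Treated libraries were higher within each of the 6 batches, and the groups overlapped only through the batch 2 vehicle library at 594, since the other 5 vehicle libraries reached 259 at most. The log2 fold was 2.55 (SE 0.35, adjusted p = 0.000865), and the ratio ran from 0.19 on the log2 scale in batch 2 to 4.26 in batch 1. Without batch 2 it was 3.07. In a fit of the compared groups alone it was 2.62 and lost the call (adjusted p = 0.134). With IL-6, COL14A1 had 65.8 to 289 normalized counts, with a median of 180.

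COL11A1 had 15738 to 57880 normalized counts in vehicle, with a median of 28489, and 9879 to 26946 with IL-4+IL-13 and a median of 17255. It was lower in 5 of 6 batches and higher in batch 4, and the groups overlapped. The log2 fold was -0.90 (SE 0.20, adjusted p = 0.0455). This call was lost without batch 1 (-0.79, adjusted p = 0.254), batch 3 (-0.94, 0.180), batch 5 (-0.91, 0.172) or batch 6 (-0.94, 0.176), and with no count filter (adjusted p = 0.0508). It was also lost without both batches 1 and 2, at -0.51 (adjusted p = 0.187), and in a fit of the compared groups alone, at -0.87 (adjusted p = 0.401).

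The 250 bases before the RefSeq start of COL11A1 (chr1:103108523-103108772 of GRCh38.p14, minus strand) are shown as those of the member that fell, with capitals for the same motifs.
COL11A1: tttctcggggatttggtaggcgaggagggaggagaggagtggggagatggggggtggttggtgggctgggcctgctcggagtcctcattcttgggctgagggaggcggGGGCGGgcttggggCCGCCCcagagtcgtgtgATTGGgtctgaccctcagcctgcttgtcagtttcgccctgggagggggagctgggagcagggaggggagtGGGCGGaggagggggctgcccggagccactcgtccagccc
GGGCGG occurred 3 times, of which 1 on the opposite strand, and CCAAT once on the opposite strand. GGGCGG was held by 42.6% of all promoters in that window and by 53.7% of the 41 promoters of members, before at least 1 start of 19 members. The STAT element was held by 5.38% of all promoters and by 7.32% of those of members, which belong to 3 members, COL10A1 (before another of its starts), COL21A1 and COL9A1. COL14A1, COL1A1, COL1A2, COL20A1, COL22A1, COL2A1, COL3A1, COL5A2, COL8A1 and COL9A3 had no entry.

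Of the 39 members, 1 was called higher (background 0.371%) and 1 lower (background 0.262%). With the log2 fold limit, 1 was called, COL14A1 (background 0.371%). DESeq2 called 6 (background 1.95%): COL1A1, COL11A1, COL4A1, COL4A2, COL4A4 and COL14A1. In every comparison DESeq2 was fitted only to all 24 libraries, so its calls were not checked with batch 2 left out. COL14A1 was the 1 member higher in 6 of 6 batches (background 2.3%), and COL2A1, COL4A1 and COL4A2 were the 3 lower in 6 of 6 (background 1.78%). In the fit 10 members lay above vehicle and 29 below, with a median log2 fold of -0.25 beside -0.01 over all rows. At an unadjusted p under 0.05, 2 were higher and 13 lower, of which 6 fibrillar and 4 network collagens (background 9.1% in either direction). Without batch 2 the median was -0.08.

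COL1A1 had 25441 to 97304 normalized counts with IL-4+IL-13, and a median of 57195, below the vehicle median with overlapping ranges. It was lower in 5 of 6 batches and higher in batch 4. The log2 fold of -0.93 (SE 0.26) passed with DESeq2 (adjusted p = 0.0180) and not with edgeR (adjusted p = 0.168). COL1A2, not called by either tool, had 58467 to 122446 normalized counts against 61628 to 144177 in vehicle. The ratio of raw counts of COL1A1 to COL1A2, compared only between libraries, was 0.66 to 1.56 in vehicle, 0.82 to 2.09 with TGF-β, 0.44 to 1.05 with IL-4+IL-13 and 0.53 to 1.16 with IL-6. Type I collagen normally holds a pair of α1 chains for each α2 chain.

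The fibrillar genes COL5A1, COL2A1 (the chain of cartilage type II), COL24A1 and COL27A1 had log2 folds of -0.43, -0.38, -0.93 and -0.41 with IL-4+IL-13, with edgeR adjusted p-values between 0.331 and 0.384. Without batch 2 the COL24A1 fold was -0.46. COL5A3, the α3 chain of type V, had one of 0.39 (SE 0.17, adjusted p = 0.513), from 369 to 1224 normalized counts in vehicle and 746 to 1427 treated. COL3A1 had a log2 fold of -0.54 (SE 0.50, adjusted p = 0.799), which became 0.23 without batch 2.

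Among network collagens, COL4A1 (chromosome 13, 110148963 to 110307157), the major basement membrane chain, had 6635 to 31301 normalized counts in vehicle, with a median of 16458, and 5431 to 16240 with IL-4+IL-13 and a median of 10936. The groups overlapped, while every batch was lower with treatment. Its log2 fold was -0.55 (SE 0.14, adjusted p = 0.0885 by edgeR and 0.0119 by DESeq2). Its partner COL4A2 followed at -0.44 (SE 0.11, adjusted p = 0.0785 and 0.00749), and COL4A4, of the kidney and cochlear form of type IV, at -0.99 (SE 0.25, adjusted p = 0.0890 and 0.00705). COL10A1 stayed at 0 to 7.67 normalized counts, with a median of 2.40, 3 batches higher and 3 lower. The FACIT genes COL9A2, COL16A1 and COL22A1 had log2 folds of -0.34, -0.84 and -0.35, with adjusted p-values between 0.358 and 0.532. Without batch 2 those of COL9A2 and COL16A1 were -0.19 and -0.54, and that of COL10A1, 0.24 with all batches, was -0.32.

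IL-6 against vehicle gave no called collagen. By edgeR 0 members were higher (background 0%), 0 lower (background 0%) and 0 past the log2 fold limit (background 0%), with 2 of 39 members and 1400 of 29377 rows (background 4.77%) at an unadjusted p under 0.05. DESeq2 called 0 (background 0.449%), and 0 were higher (background 1.18%) or lower (background 1.05%) in 6 of 6 batches. The 2 members at an unadjusted p under 0.05 were COL24A1, a fibrillar collagen of developing bone and eye, with a log2 fold of -0.89 (SE 0.35, adjusted p = 0.850), and COL26A1 with 0.15 (SE 0.06, adjusted p = 0.850). COL24A1 had 57.0 to 174 normalized counts in vehicle, with a median of 110, and 23.3 to 89.9 with IL-6, with a median of 67.9, and the groups overlapped. Batch 2 had the lowest ratio, -2.85 on the log2 scale, and without it the log2 fold was -0.39.

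The 4 marker collagens did not separate with IL-6. COL1A1 had 42417 to 152183 normalized counts, with a median of 103100, and a log2 fold of -0.26 (SE 0.26, adjusted p = 0.879). COL3A1 had a log2 fold of -0.48 (SE 0.50, adjusted p = 0.882), COL10A1 0.36 (SE 0.87, adjusted p = 0.957) and COL14A1 -0.13 (SE 0.34, adjusted p = 0.962). Without batch 2 these 4 folds were 0.061, 0.28, 0.0041 and 0.30. The median over all 39 members was -0.10 beside -0.01 over all rows, and 0.06 without batch 2.

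**Figure D4:**
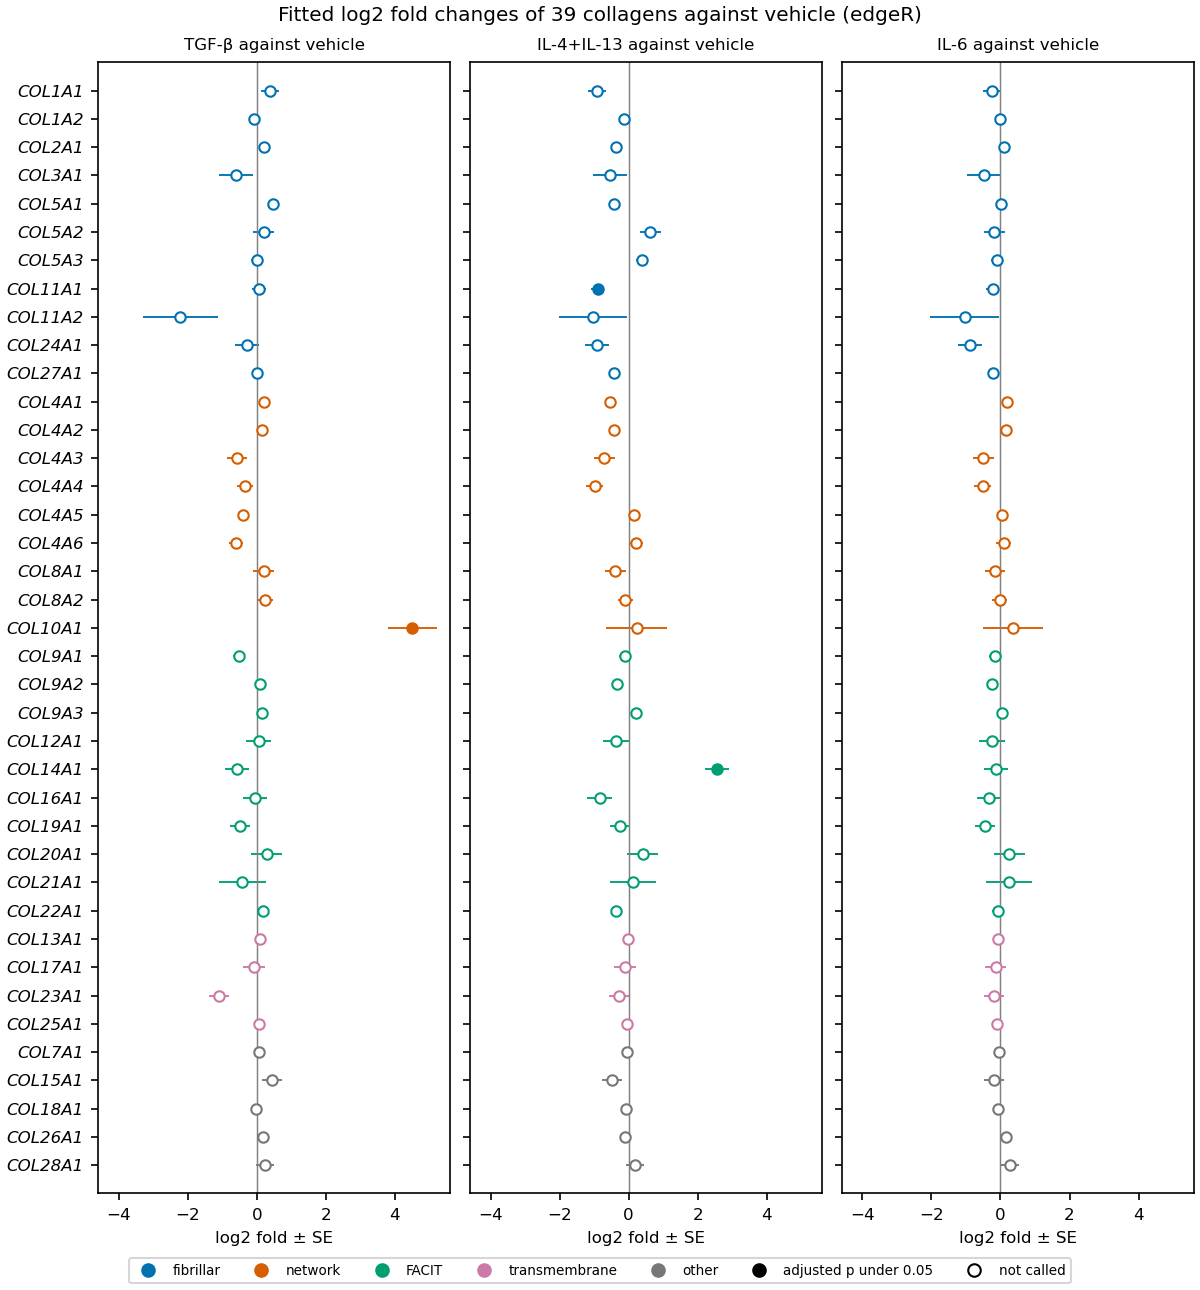
Fitted log2 fold changes against vehicle for the 39 collagens, colored by structural group, with bars for the SE and filled points for an edgeR adjusted p under 0.05. The filled points are COL10A1 with TGF-β at 4.51, COL14A1 and COL11A1 with IL-4+IL-13 at 2.55 and -0.90, and none with IL-6.

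A direct contrast set the TGF-β cultures against the IL-4+IL-13 cultures in the same model of 24 libraries. Here 11 collagens separated: COL1A1, COL2A1, COL5A1, COL11A1, COL4A1, COL4A2, COL10A1 and COL26A1 were higher with TGF-β, and COL4A5, COL4A6 and COL14A1 lower. The fibrillar group had 4 of 11 members higher and none lower. Of the type IV chains, the COL4A1 and COL4A2 pair was higher and the COL4A5 and COL4A6 pair lower, while neither COL4A3 nor COL4A4 was called.

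Of the 39 members, 8 were called higher (background 1.08%) and 3 lower (background 1.9%). With the log2 fold limit, 3 were called, COL1A1, COL10A1 and COL14A1 (background 1.18%). DESeq2 called 14 (background 5.35%), adding COL9A2, COL22A1 and COL15A1. At an unadjusted p under 0.05, 14 were higher and 6 lower (background 12.2% in either direction). In 6 of 6 batches, 14 were higher (background 4.48%) and 4 lower (background 5.32%), the latter COL4A6, COL9A1, COL14A1 and COL23A1. The median log2 fold was 0.12, beside -0.0048 over all rows. The vehicle library of batch 2 enters this contrast only through the shared estimate of spread and batch, and without batch 2 the count was 12. In a fit of the 12 compared libraries alone it was also 12, without COL2A1 (adjusted p = 0.251) and COL4A5 (0.0632) and with COL9A2 (0.00455), COL22A1 (0.00578) and COL23A1 (0.00532).

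COL1A1 had 71705 to 303343 normalized counts with TGF-β and 25441 to 97304 with IL-4+IL-13. The groups overlapped between batches, and within batches TGF-β was higher in 6 of 6, by log2 ratios from 0.89 in batch 2 to 2.50 in batch 1. The log2 fold was 1.31 (SE 0.26, adjusted p = 0.00675). COL5A1 had 16419 to 64567 normalized counts with TGF-β and 8615 to 24331 with IL-4+IL-13, overlapping, with a log2 fold of 0.90 (SE 0.15, adjusted p = 0.00152). COL11A1 had 17784 to 60938 and 9879 to 26946, also overlapping, with a log2 fold of 0.98 (SE 0.20, adjusted p = 0.00838). Both genes were higher in 6 of 6 batches. The COL11A1 call was lost without batch 1 (adjusted p = 0.0598), batch 3 (0.0542) or batch 5 (0.0531). COL2A1, at 5121 to 13588 with TGF-β against 3443 to 11608, had a log2 fold of 0.58 (SE 0.14, adjusted p = 0.0236), lost without batch 2 (0.0958), batch 3 (0.125) or batch 4 (0.101).

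The type IV genes lie head to head in pairs. COL4A1 and COL4A2 (chromosome 13) are read away from each other from starts 126 bases apart, COL4A5 and COL4A6 (chromosome X) from RefSeq starts 379 bases apart, and COL4A3 and COL4A4 (chromosome 2) from starts 418 bases apart. The sequence between the first pair (chr13:110307158-110307283, plus strand) and the 250 bases before COL4A5 within the second (chrX:108439588-108439837, plus strand), both of GRCh38.p14, are shown because those pairs moved in opposite directions, with capitals as before.
COL4A1/COL4A2: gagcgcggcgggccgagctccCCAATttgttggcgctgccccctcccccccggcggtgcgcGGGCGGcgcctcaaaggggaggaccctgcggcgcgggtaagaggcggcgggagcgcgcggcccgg
COL4A5/COL4A6: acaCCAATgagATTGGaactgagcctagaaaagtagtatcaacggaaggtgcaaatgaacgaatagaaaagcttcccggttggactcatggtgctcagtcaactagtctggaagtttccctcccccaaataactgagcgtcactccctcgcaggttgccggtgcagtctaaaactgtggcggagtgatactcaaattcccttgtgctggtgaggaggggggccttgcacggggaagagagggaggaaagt
The first stretch was 80.2% G or C and held GGGCGG and CCAAT once each. The second was 51.2% G or C and held CCAAT on both strands and no GGGCGG. Neither held the TATA box, the SMAD element or the STAT element.

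COL4A1 had 9775 to 44077 normalized counts with TGF-β, with a median of 15965, against 5431 to 16240 with IL-4+IL-13. It was higher in 6 of 6 batches although the groups overlapped, with a log2 fold of 0.76 (SE 0.14, adjusted p = 0.00287). COL4A2 had 11460 to 46010 against 7137 to 19242, with a log2 fold of 0.59 (SE 0.11, adjusted p = 0.00296), and was also higher in 6 of 6. Batch 1 gave the largest ratio and batch 5 the smallest for both genes, at 1.44 and 0.16 for COL4A1 and 1.26 and 0.15 for COL4A2 on the log2 scale.

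COL4A6 had 3623 to 29519 normalized counts with TGF-β, with a median of 9617, against 10404 to 35354 with IL-4+IL-13 and a median of 17155. The groups overlapped, and TGF-β was lower in 6 of 6 batches. Its log2 fold was -0.82 (SE 0.21, adjusted p = 0.0396). The call was lost without batch 3 (adjusted p = 0.185), batch 4 (0.0614), batch 5 (0.197) or batch 6 (0.122). COL4A5 had 6131 to 31745 against 11593 to 31383 and a log2 fold of -0.54 (SE 0.14, adjusted p = 0.0393). It was lower in 5 of 6 batches and level in batch 1, and its call was lost without batch 3 (0.205), batch 4 (0.107), batch 5 (0.195) or batch 6 (0.145). The ratio of raw COL4A5 to COL4A6 counts was 0.98 to 1.69 with TGF-β and 0.89 to 1.21 with IL-4+IL-13.

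COL10A1 was higher with TGF-β in 6 of 6 batches, with a log2 fold of 4.27 (SE 0.72, adjusted p = 0.00166). The smallest ratio was that of batch 1, 0.51 on the log2 scale, from 4 raw counts against 3, and the largest 6.61 in batch 4, from 88 against 0. COL14A1 was lower with TGF-β, at 33.4 to 179 normalized counts with a median of 146, against 469 to 1381, and the groups did not overlap. Its log2 fold was -3.13 (SE 0.35, adjusted p = 5.53e-05). COL26A1 had 4036 to 8412 against 3499 to 6739 and a log2 fold of 0.29 (SE 0.06, adjusted p = 0.00667), higher in 6 of 6 batches with overlapping groups. It lost the call without batches 1 and 2, at 0.22 (adjusted p = 0.0571).

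COL3A1 showed no separation here, at a log2 fold of -0.06 (SE 0.46, adjusted p = 0.992). COL9A2, COL22A1 (a FACIT collagen of muscle and tendon junctions) and COL15A1 (of the basement membrane zone) had log2 folds of 0.43, 0.53 and 0.94, past the threshold with DESeq2 (adjusted p = 0.0232, 0.0251 and 0.0205) and not with edgeR (0.0697, 0.0954 and 0.102). COL23A1 had a log2 fold of -0.82 (SE 0.29, adjusted p = 0.180), at 456 to 1453 with TGF-β against 638 to 2639. COL16A1, COL27A1 and COL4A4 had log2 folds of 0.80, 0.42 and 0.64, with adjusted p-values between 0.189 and 0.344. Without batch 2, COL9A2 and COL15A1 were called, at 0.42 (adjusted p = 0.00493) and 1.15 (0.00639).

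**Figure D5:**
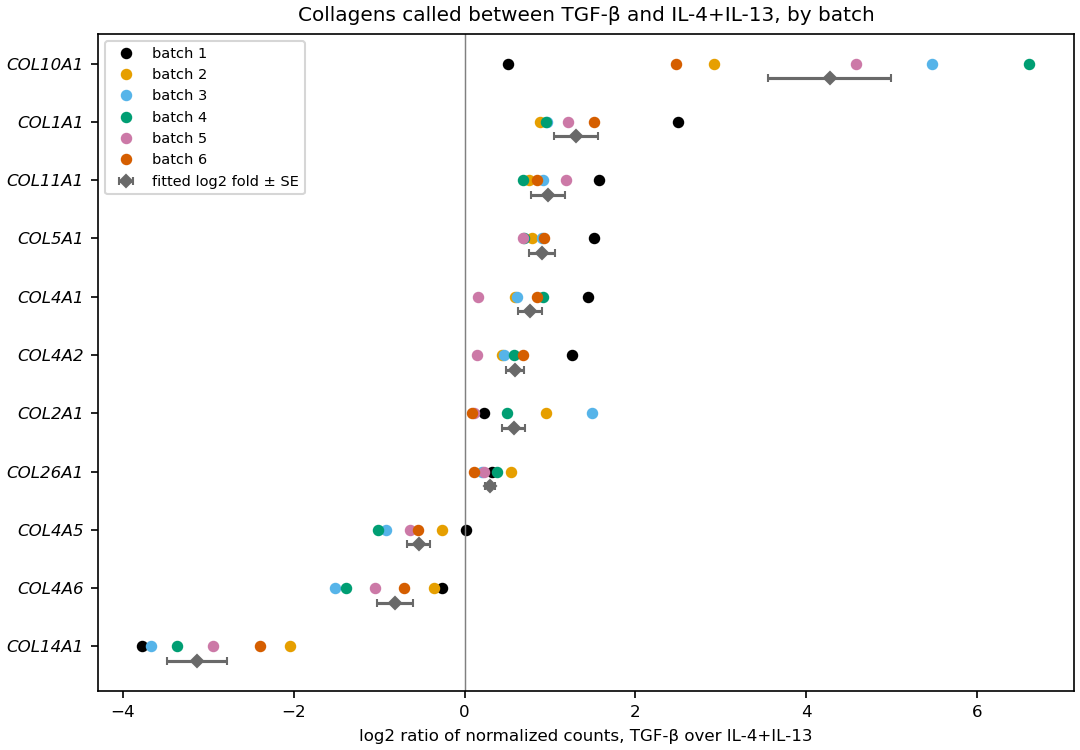
The 11 collagens called between TGF-β and IL-4+IL-13. Colored points are the log2 ratios of normalized counts within each of 6 batches, and grey diamonds the fitted log2 fold with its SE. For 10 of the genes all batches lie on the same side of 0, and for COL4A5 batch 1 lies at 0.02.

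The enzymes and partners of collagen were counted from 4 lists. Against vehicle, TGF-β gave 0 called genes in each list: 0 of 20 for collagen hydroxylation and folding, 0 of 13 for procollagen cleavage and cross-linking, 0 of 7 for fibril-binding proteoglycans and partners, and 0 of 9 tested collagen receptors. Of 49 tested genes, 10 were at an unadjusted p under 0.05 and 3 were called by DESeq2, against 7.29% and 1.72% of all rows. These were ADAMTS14, a procollagen N-proteinase, at a log2 fold of 1.27 (edgeR adjusted p = 0.0530, DESeq2 0.000795), LOX, the founding lysyl oxidase that cross-links collagen, at 0.66 (edgeR 0.106, DESeq2 0.0112), and ITGA11, the fibrillar collagen receptor integrin α11, at 0.80 (edgeR 0.144, DESeq2 0.0161). LAIR1 of the receptor list was not tested, with 1 count over 24 libraries.

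IL-4+IL-13 against vehicle lowered 1 gene of procollagen cleavage and cross-linking, LOXL2, by a log2 fold of -1.14 (SE 0.21, adjusted p = 0.0111), and 2 receptors, ITGA11 by -1.59 (SE 0.22, adjusted p = 0.000888) and MRC2, an endocytic collagen receptor, by -0.45 (SE 0.10, adjusted p = 0.0304). Each was lower in 6 of 6 batches, and none of the 4 lists had a gene called higher. Over the 4 lists, 13 of 49 genes were at an unadjusted p under 0.05 and 3 called by DESeq2, against 9.1% and 1.95% of all rows. The receptor list had a median log2 fold of -0.41 over its 9 tested genes. In the lists without a call, the smallest p-values were those of PLOD1, a lysyl hydroxylase, at -0.36 (adjusted p = 0.295) and PRELP, a collagen-binding proteoglycan, at 0.94 (adjusted p = 0.269). IL-6 gave 0 called genes in all 4 lists by edgeR and 0 by DESeq2, with 1 of 49 tested genes at an unadjusted p under 0.05.

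Directly compared, TGF-β exceeded IL-4+IL-13 for 1 of 20 hydroxylation and folding genes, P4HA3, a prolyl hydroxylase subunit, at 1.30 (adjusted p = 0.0274), where 1.08% of all rows were called higher. It exceeded it for 5 of 13 cleavage and cross-linking genes: ADAMTS14 at 2.04, LOXL2 at 1.30, LOXL1 at 0.75, TLL2 at 0.71 and LOX at 0.61, with adjusted p-values between 0.000285 and 0.0482. It exceeded it for 4 of 9 receptors: ITGA11 at 2.40, ITGA2 at 0.92, ITGB1 at 0.73 and MRC2 at 0.64, with adjusted p-values between 7.76e-06 and 0.00878. All of these were higher in 6 of 6 batches. None of the 7 proteoglycans and partners was called, and no gene of the 4 lists was called lower. At an unadjusted p under 0.05 there were 18 of 49, and DESeq2 called 10, against 12.2% and 5.35% of all rows.

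Markers of other cells were set beside these results. Of the 10 Schwann cell or glia markers, the tests of 9 are reported and 1 is not reported here, so that list is incomplete in each statement. With TGF-β against vehicle, none of these 9 and none of the neuron, fibroblast or mesenchyme, smooth muscle or pericyte, chondrocyte, epithelium or endothelium markers was called. Some lists still leaned to a side in the fit. Of the 6 endothelium markers, 5 lay below vehicle and 1 above, with a median log2 fold of -0.98. All 6 epithelium markers lay below, with a median of -0.22. Of the 10 fibroblast or mesenchyme markers, 4 lay above and 6 below, with a median of -0.11. Their summed level was 15.9 to 16.9 with TGF-β and 15.8 to 16.6 in vehicle. The summed level of the 9 glia markers on the log2 scale was 10.8 to 11.9 with TGF-β, 10.8 to 12.2 in vehicle and 10.95 to 12.2 with IL-4+IL-13. The summed chondrocyte level, which bears on the cartilage collagen COL10A1, was 11.4 to 12.4 on the log2 scale with TGF-β and 11.3 to 12.6 in vehicle. With IL-4+IL-13, 1 of 6 epithelium markers fell, CDH1 at -1.89 (adjusted p = 0.00957). The summed fibroblast or mesenchyme level, which bears on COL14A1 and COL1A1, was 15.8 to 16.1, against 15.8 to 16.6 in vehicle. In the fit 9 of the 10 markers of that list lay below vehicle and 1 above, with a median log2 fold of -0.25. With IL-6 none of the reported markers was called. Between TGF-β and IL-4+IL-13, FAP of the fibroblast list (1.60), SOX9 of the chondrocyte list (0.36) and CDH1 (1.27) were higher with TGF-β and KDR of the endothelium list (-1.30) lower, with no neuron, smooth muscle or reported glia marker called. All 6 endothelium markers had a negative log2 fold in this contrast, with a median of -0.86. Of the 10 fibroblast or mesenchyme markers, 5 were higher and 5 lower with TGF-β, with a median log2 fold of 0.04. Their summed level was 15.9 to 16.9 with TGF-β, against 15.8 to 16.1 with IL-4+IL-13. The part of these markers in the collagen differences was not tested.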

How the data were processed

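Raw read counts per gene were deposited for 24 libraries. According to the labels, the sequencing provider trimmed adapters with Trimmomatic 0.30, aligned reads to GRCh38.p14 and counted features, without normalization or pooling by the authors. The aligner, counting tool and strandedness are not given in the sources used here. A minimum of 10 counts over all libraries kept 29377 rows. Counts were tested with edgeR 4.0.16 (TMM, robust quasi-likelihood F test, treatment and batch in 1 model of 24 libraries, Benjamini-Hochberg over all rows) in R 4.3.3, and with DESeq2 1.42.0 as alternative. Only the edgeR fit was tried on simulated counts, which held no differences between batches. SEs were derived from the log2 fold and the F statistic. Normalized counts are counts divided by DESeq2 size factors, and levels are log2(normalized count + 1). Coordinates and promoters came from RefSeq GRCh38.p14, and exon and coding lengths from GENCODE. Batch was taken from the labels and pairs the libraries: deviations of libraries of a batch correlated at a median r of 0.56, against -0.16 between batches. Deviations were taken from group means, which by itself makes correlations between batches tend to be negative. With batch in the model, the p-values weigh a fold against the variation left over all 4 treatments once batch and treatment were fitted. That spread was also estimated in part across genes, so it is not the unevenness of the named fold alone. All batches come from a single line. Values were named for COL10A1, COL14A1, COL1A1 and COL3A1, for members at an unadjusted edgeR p under 0.05 against vehicle with the same direction in at least 5 of 6 batches, and for members called by either tool. Members and gene lists were chosen with earlier results of these data known. Alternatives covered test, scaling, count filter, batch term, libraries in the fit, repeated symbols and each batch left out. The tests of 1 marker of the Schwann cell or glia list are not reported here.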

Additional observations from a re-analysis of the deposited data

Results flagged for a closer look

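Of 76 sets of 6 batch ratios examined, 5 held a batch whose gap to its nearest neighbour passed Dixon's 95% critical value of 0.625 of the range, and chance alone flags about 1 in 20. The COL5A1 log2 ratio of TGF-β to IL-4+IL-13 was 1.51 in batch 1, where the other batches lay between 0.68 and 0.93. The COL16A1 ratio of the same comparison was 2.60 in batch 1. The COL24A1 ratio of that comparison was 1.92 in batch 5, and its ratio of IL-6 to vehicle was -2.85 in batch 2, the batch whose vehicle library stood apart. The COL22A1 ratio of TGF-β to vehicle was -0.72 in batch 4.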

How the results depend on the processing

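Relative log expression scaling within edgeR in place of TMM, and either the first row or the sum of rows per symbol, changed no call of a named collagen. DESeq2's own test added calls: 2 members against 1 for TGF-β and 6 against 2 for IL-4+IL-13. Without the replicate block, the batch term that pairs libraries, TGF-β had 0 called members, IL-4+IL-13 had 0, and the direct contrast had 2, and COL3A1 turned to 0.0048 in the latter. In fits of the 12 compared libraries alone, TGF-β and IL-4+IL-13 had 0 and 0 and the direct contrast 12, and COL14A1 turned to 0.017 with IL-6. With no count filter 1 was called for IL-4+IL-13. Leaving out 1 batch at a time, called members ranged from 0 to 1 for TGF-β (0 without batch 3 or 5), from 1 to 3 for IL-4+IL-13 (1 without batch 1, 3, 5 or 6) and from 7 to 12 between the treatments (7 without batch 3). Log2 folds that changed sign ranged from -0.98 to 0.12 for COL3A1 with TGF-β, from -0.86 to 0.23 for COL3A1 and from -0.32 to 0.84 for COL10A1 with IL-4+IL-13, and with IL-6 from -0.11 to 1.01 for COL10A1, -0.41 to 0.061 for COL1A1, -0.73 to 0.28 for COL3A1 and -0.33 to 0.30 for COL14A1. COL3A1 between the treatments ranged from -0.13 to 0.02. Without batches 1 and 2, chosen after seeing the data, 4 members were called for TGF-β and 1 for IL-4+IL-13, and the folds that turned were COL3A1 at 0.025 with TGF-β and at 0.066 with IL-4+IL-13, COL10A1 at -0.92 with IL-4+IL-13, and with IL-6 COL1A1 at 0.26, COL3A1 at 0.22, COL10A1 at -0.67 and COL14A1 at 0.13. The causes were not tested. COL10A1 outside TGF-β rested on 0 to 9 raw counts per library, where no difference was detectable at this depth.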
